A study of Mus musculus with 5 samples.

Results

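Nuclear receptor genes were examined in myocyte mRNA from the mouse soleus, a postural hindlimb muscle. The group of genes comprised 40 listed receptors, leaving out the REV-ERB, ERR and glucocorticoid receptor genes, and members were the probe sets whose single symbol in the array annotation is one of these names. In the annotation used, 37 of the 40 genes had a probe set, out of 19505 genes measured, and 3 (*Ppard*, *Nr1h2* and *Nr2e3*) were not analysed here because no probe set carried their symbol. *Rora* had 3 probe sets and *Rorb* 2, which were averaged, and every other member had 1.

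The arrays came from the left soleus of 5 sedentary mice, numbered 1, 3, 11, 14 and 16 and called HA-RiboTagMyo mice. Their genotype combines Myogenin-Cre with the RiboTag allele Rpl22fl/fl-HA, and all 5 carry both, so that ribosomes of cells that have expressed myogenin are tagged with HA, and anti-HA antibody brings down the mRNA bound to them. Each pulldown was measured on 1 mouse Clariom S array, and values are log2 signals. The labels give neither sex nor age. The Methods describe adult male mice on a standard diet, and tissue harvest in the early afternoon after a fast of a few hours, each unless otherwise stated.

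The design holds 1 group without a control tissue, so no difference between conditions could be tested. The question was which receptor genes read above the background of the array and how far they varied between mice. The 95th percentile of 1091 odorant receptor genes, few of which are known to be transcribed in muscle, served as the cutoff and lay between 5.25 and 5.32 on the 5 arrays. Genes were called above background where their distance from it was positive with an adjusted p under 0.05 (limma, two-sided, Benjamini-Hochberg over all genes). Myofiber RNA was looked for with 12 markers of contraction, calcium handling and energy supply. All 12 were called, and their mean signal lay between 18.26 and 18.52 in the 5 mice. RNA of whole soleus was not measured, so these calls cannot tell myocyte mRNA from RNA of the whole muscle. Markers of other cells were called too, from 1 of 10 immune cell genes to 6 of 9 fibroblast genes, where 43.5% of all genes were. Of the Y-linked genes looked at, *Eif2s3y* had 10.42, 11.92 and 12.73 in mice 3, 11 and 14 but 3.54 and 3.53 in mice 1 and 16, *Uty* had 6.96, 7.35 and 7.44 but 4.09 and 3.93, and *Kdm5d* had 5.89, 5.80 and 6.24 but 3.13 and 3.52. All 3 were thus under the cutoff in mice 1 and 16, which does not match a group of male mice only.

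Nuclear receptors are transcription factors, most of which are switched by a small lipophilic ligand that enters the cell. Many of them, among them the receptors for thyroid hormone, retinoic acid, vitamin D, fatty acids and oxysterols, bind DNA as a heterodimer with a retinoid X receptor (RXR). Steroid receptors act mainly as homodimers, and orphan receptors such as the NR4A family act without a classical ligand and are controlled mostly by their own synthesis. In skeletal muscle, thyroid hormone receptors shape fiber type and calcium handling, and PPARs shape the use of fatty acids.

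Of the 37 measured receptor genes, 22 (59.5%) were called above background, where 43.5% of all genes were called. The same 43.5% is the share beside which each count of called genes in a group or list below stands. The signal lay over the cutoff in every mouse for 23 (62.2%), where it did for 42.5% of all genes, and under it in every mouse for 12 (32.4%), where it did for 43.3%. The called genes covered all 3 RXRs, both thyroid hormone receptors, all 3 retinoic acid receptors, all 3 NR4A receptors and both testicular receptors. The median signal of the called receptors was 8.21, against 8.56 for all called genes. Signals of different probe sets also carry probe affinity, so the order of genes below is an order of signals and need not be that of transcripts. Of the 21 neighbouring pairs in that order, 15 were separated by less than the smaller SD of the pair.

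**Figure D1:**
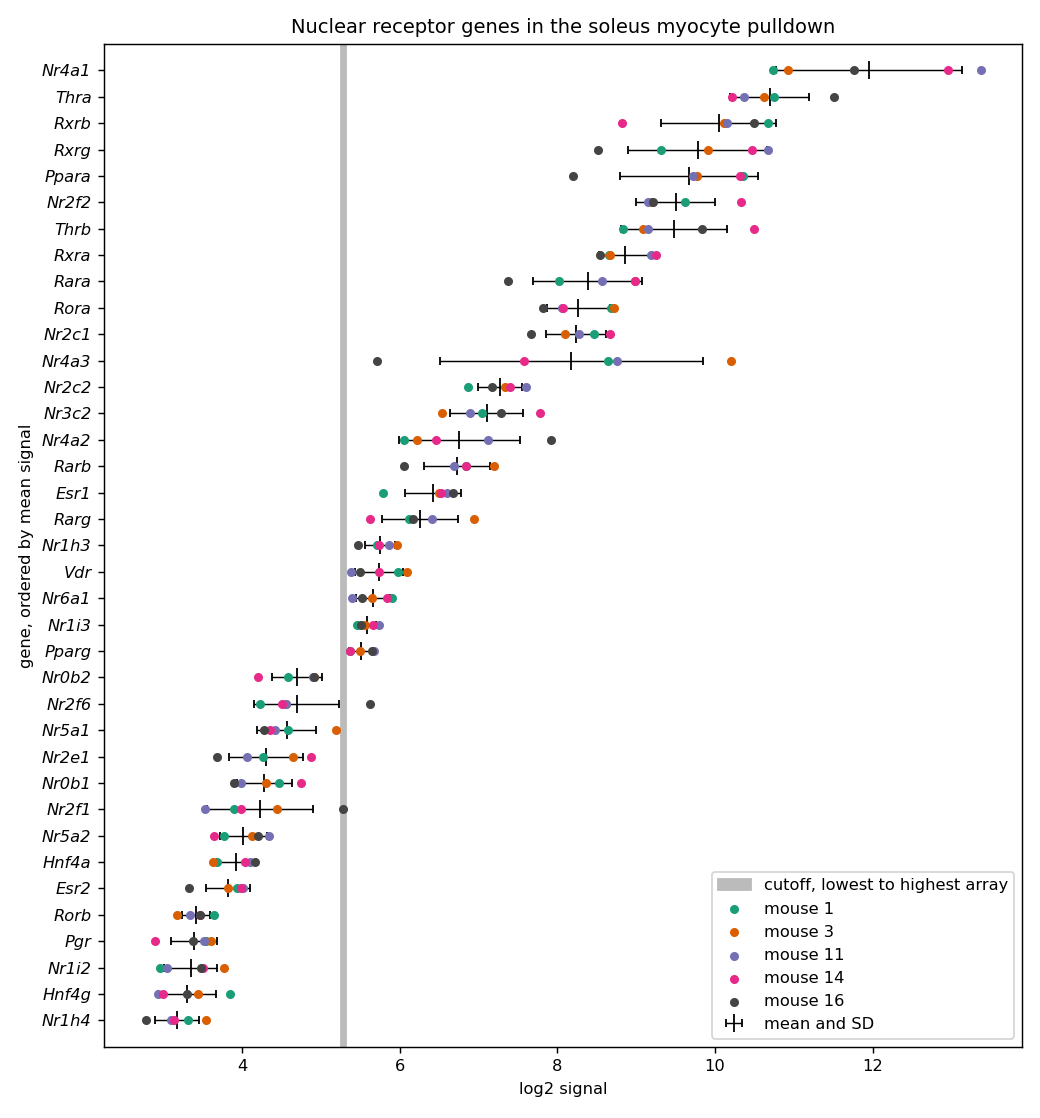
Log2 signal (horizontal axis) of the 37 measured nuclear receptor genes, ordered by mean signal, with 1 point per mouse, the mean of 5 mice and its SD, and a grey band for the cutoff on the 5 arrays. The points of 23 genes lie to the right of the cutoff in every mouse, from *Pparg* up to *Nr4a1*, and *Nr4a3* spreads widest.

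RXRs are the shared partners of the ligand-switched receptors. *Rxrb* read 10.67, 10.11, 10.15, 8.82 and 10.49 in mice 1, 3, 11, 14 and 16, a mean of 10.05 ± 0.73 (SD, n = 5). It was even in 4 mice and lowest in mouse 14. *Rxrg*, the subtype known for its muscle and brain expression, read 9.32, 9.92, 10.67, 10.47 and 8.52 in the same order of mice, a mean of 9.78 ± 0.88 (SD, n = 5), and so was high in mouse 14, where *Rxrb* was low. *Rxra* varied least of the 3, with 8.65, 8.66, 9.19, 9.26 and 8.54 and a mean of 8.86 ± 0.34 (SD, n = 5). Their distances from the cutoff were 4.77 for *Rxrb* (standard error 0.23), 4.50 for *Rxrg* (standard error 0.27) and 3.58 for *Rxra* (standard error 0.16), with adjusted p-values from limma of 1.92e-09, 1.32e-08 and 6.29e-10.

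Thyroid hormone receptors mediate the action of T3, and both genes were called. *Thra* read 10.75, 10.62, 10.37, 10.22 and 11.51 in mice 1, 3, 11, 14 and 16, a mean of 10.70 ± 0.50 (SD, n = 5), which is 5.42 log2 units over the cutoff (limma, standard error 0.19, adjusted p = 7.17e-11). *Thrb* read 8.84, 9.08, 9.15, 10.49 and 9.84, a mean of 9.48 ± 0.68 (SD, n = 5), which is 4.20 log2 units over the cutoff (limma, standard error 0.22, adjusted p = 4.51e-09). Mouse 14 had the lowest signal of *Thra* and the highest of *Thrb*, and mouse 16 the highest of *Thra*.

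Of the genes that supply or remove thyroid hormone, 3 of 8 measured were called, where 43.5% of all genes were. These were the transporter genes *Slc7a5* at 7.09 ± 0.36, *Slc16a10* at 7.02 ± 0.86 and *Slc7a8* at 6.32 ± 0.41 (SD, n = 5 each). The deiodinase gene *Dio2*, whose enzyme makes T3 from T4, had 4.31 ± 0.23 (SD, n = 5), and it lay below the cutoff in all 5 mice, as did *Dio1* at 3.83 ± 0.21 and *Dio3* at 3.73 ± 0.27 (SD, n = 5 each). *Crym*, which encodes a T3-binding protein of the cytosol, read just over the cutoff in all 5 mice without being called (limma, distance 0.21, standard error 0.13, adjusted p = 0.156). Of 8 genes known to respond to thyroid hormone, 6 were called, among them *Klf9* at 15.20 ± 0.39 and *Slc2a4* at 14.01 ± 0.30 (SD, n = 5 each). Those not called were *Hr* at 5.04 ± 0.12 (SD, n = 5) and *Dio1*, both below the cutoff in all 5 mice. *Atp2a1*, the fast calcium pump, read at the top of the scale in 4 mice. In mouse 16 its signal was equal to that of the myofiber markers *Acta1*, *Mb* and *Myh2*, a ceiling of that array. Its order of mice therefore says little.

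PPARs sense fatty acids and their derivatives. *Ppara* read 10.36, 9.77, 9.72, 10.31 and 8.20 in mice 1, 3, 11, 14 and 16, a mean of 9.67 ± 0.88 (SD, n = 5), which is 4.40 log2 units over the cutoff (limma, standard error 0.26, adjusted p = 1.44e-08). Mouse 16 was the lowest, 4.48-fold under mouse 1 on the linear scale, and the other 4 lay within 0.7 log2 units of each other. *Pparg*, the receptor of adipocytes, read 5.36, 5.50, 5.68, 5.37 and 5.65, over the cutoff in all 5 mice by a small margin. It was not called (limma, distance 0.24, standard error 0.14, adjusted p = 0.124). Of 6 adipocyte markers 2 were called, *Fabp4* at 10.98 ± 0.80 and *Cidec* at 7.08 ± 0.29 (SD, n = 5 each), the list mean was between 5.70 in mouse 11 and 6.30 in mouse 16, and *Lep* was under the cutoff in all 5 mice. The part of adipocytes in the *Pparg* signal was not tested.

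All 10 measured PPAR target genes were called, with a median signal of 14.75. *Pdk4*, the kinase that shuts off pyruvate dehydrogenase, read 18.85, 18.90, 17.85, 16.96 and 13.37 in mice 1, 3, 11, 14 and 16. *Ucp3*, a mitochondrial carrier, read 13.71, 14.57, 12.04, 12.34 and 10.12. Both were lowest in mouse 16, by 46.2-fold for *Pdk4* and 21.8-fold for *Ucp3* from the highest mouse. The lipid droplet gene *Plin5* had 10.71, 11.07, 11.38, 9.06 and 7.73, again with mouse 16 at the bottom. Over the 10 targets, mouse 16 was lowest for 7, and over all 8482 called genes it was lowest for 1696. Among the 7 is *Fabp3*, which read near the ceiling of the arrays over a range of 0.043 log2 units, so its order of mice says little. The remaining mice did not follow *Ppara* in the same way. Mouse 14 was second highest for *Ppara*, and it was the lowest for *Angptl4* (5.64), a secreted lipase inhibitor, and for the fatty acid transporter gene *Cd36* (15.64). The coactivator gene *Ppargc1a* read 15.73, 16.11, 13.22, 13.88 and 11.17 and was also lowest in mouse 16. These genes answer to several regulators, and the part of PPARα in their spread was not tested.

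**Figure D2:**
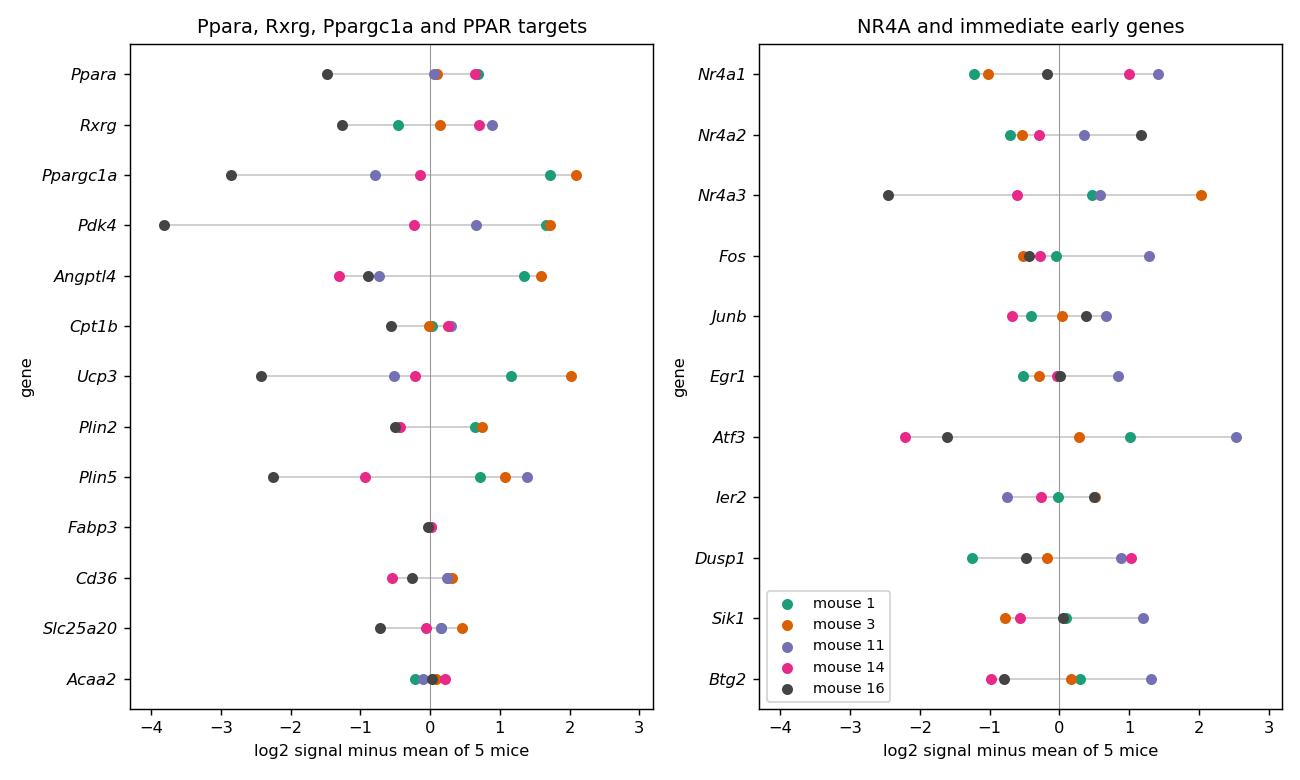
Log2 signal of each mouse minus the mean of 5 mice (horizontal axis) for *Ppara*, *Rxrg*, *Ppargc1a* and the 10 PPAR targets (left) and for the NR4A genes and the 8 called immediate early genes (right), with 1 point per mouse and a line from the lowest to the highest. Mouse 16 is at the left end for *Ppara*, *Rxrg*, *Ppargc1a* and 7 of the 10 targets, and each NR4A gene has another mouse at its right end. *Fabp3*, among the 7, spans 0.043 log2 units near the ceiling of the arrays.

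Retinoic acid receptors (RARs) are switched by all-trans retinoic acid. *Rara* read 8.02, 8.99, 8.57, 8.99 and 7.37 in mice 1, 3, 11, 14 and 16, a mean of 8.39 ± 0.69 (SD, n = 5), which is 3.11 log2 units over the cutoff (limma, standard error 0.23, adjusted p = 8.82e-08). *Rarb*, itself a known target of retinoic acid, read 6.84, 7.20, 6.69, 6.84 and 6.06, a mean of 6.73 ± 0.42 (SD, n = 5), which is 1.45 log2 units over the cutoff (limma, standard error 0.17, adjusted p = 6.35e-06). Both were highest in mouse 3 and lowest in mouse 16, though for *Rara* mouse 14 (8.986) was nearly level with mouse 3 (8.992). *Rarg* read 6.12, 6.95, 6.41, 5.63 and 6.17, a mean of 6.26 ± 0.48 (SD, n = 5), which is 0.98 log2 units over the cutoff (limma, standard error 0.18, adjusted p = 0.000344). It shared the highest mouse with the other two, and its lowest was mouse 14.

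Few of the genes that make, carry or destroy retinoic acid were called, 2 of 15 measured, against 43.5% of all genes. These were *Aldh1a1*, a retinaldehyde dehydrogenase, at 12.23 ± 0.58 and *Dhrs3*, which reduces retinaldehyde back to retinol, at 9.85 ± 0.66 (SD, n = 5 each). The *Cyp26* genes that degrade retinoic acid lay below the cutoff in every mouse, with means from 3.98 for *Cyp26c1* to 4.32 for *Cyp26b1*. Of 6 measured target genes of retinoic acid, *Dhrs3* and *Tgm2* were called, and *Tgm2* was even between mice at 8.36 ± 0.07 (SD, n = 5). *Cyp26a1*, *Cyp26b1* and *Crabp2*, which also belong to that list, lay below the cutoff in every mouse, and *Stra6* in all but mouse 16.

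*Rora* encodes an orphan receptor of the circadian and lipid programs, and its 3 probe sets disagreed. One read 11.08, 10.79, 10.94, 11.18 and 10.15 in mice 1, 3, 11, 14 and 16, another 9.35, 10.02, 8.67, 8.14 and 8.69, and the last 5.60, 5.34, 4.57, 4.90 and 4.62. Both of the latter carry identifiers with no chromosome. The mean of all 3 was 8.27 ± 0.40 (SD, n = 5), which is 2.99 log2 units over the cutoff (limma, standard error 0.17, adjusted p = 6.79e-09). *Rorb*, known from retina and brain, had 3.42 ± 0.18 (SD, n = 5) and lay below the cutoff in every mouse.

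Receptors for sterols, vitamin D and foreign compounds read near the cutoff or under it. *Nr1h3*, which encodes the oxysterol receptor LXRα, read 5.71, 5.97, 5.86, 5.73 and 5.47 in mice 1, 3, 11, 14 and 16, a mean of 5.75 ± 0.19 (SD, n = 5), which is 0.47 log2 units over the cutoff (limma, standard error 0.14, adjusted p = 0.00716). The vitamin D receptor gene *Vdr* read 5.98, 6.09, 5.39, 5.73 and 5.50, a mean of 5.74 ± 0.30 (SD, n = 5), which is 0.46 log2 units over the cutoff (limma, standard error 0.15, adjusted p = 0.0131). *Nr1i3*, the liver receptor CAR, read 5.46, 5.56, 5.74, 5.67 and 5.51, which is 0.31 log2 units over the cutoff (limma, standard error 0.13, adjusted p = 0.0451). *Nr6a1*, an orphan receptor of germ cells and embryos, read 5.91, 5.65, 5.40, 5.84 and 5.52, which is 0.39 log2 units over it (limma, standard error 0.14, adjusted p = 0.0212). These 4 were the called receptors that lay within 0.5 log2 units of the cutoff. The calls of all 4 were lost against vomeronasal receptor genes, with adjusted p-values from limma between 0.153 for *Nr1h3* and 0.623 for *Nr1i3*. The call of *Nr1i3* was also lost without any 1 of the 5 mice, that of *Vdr* without mouse 3 (adjusted p = 0.0610 from limma), and that of *Nr6a1* without mouse 1 or mouse 14 (adjusted p = 0.0709 and 0.0589 from limma).

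Of 8 measured LXR targets, 7 were called, and 5 of these 7 were highest in mouse 16, which was highest for 21.6% of all called genes. *Scd1*, a fatty acid desaturase, read 8.65, 8.79, 7.22, 7.38 and 10.10 in mice 1, 3, 11, 14 and 16. The other 2 of the 7, *Lpcat3* and *Smpdl3a*, were lowest in mouse 16. *Lpcat3*, which remodels phospholipids, read 11.12, 11.81, 11.99, 11.48 and 9.80, and *Smpdl3a*, a phosphodiesterase gene, read 10.27, 10.28, 10.81, 11.54 and 9.73. *Nr1h3* too had its lowest signal in mouse 16. The gene of the partner receptor LXRβ (*Nr1h2*) was not analysed here. Of 6 measured genes of vitamin D supply, *Cyp27a1* was called at 8.96 ± 0.69 (SD, n = 5), and *Cyp24a1*, the classical vitamin D target that inactivates the hormone, had 4.72 ± 0.19 (SD, n = 5), below the cutoff in every mouse.

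Among steroid receptors, 2 of 4 were called, close to the 43.5% of all genes. *Nr3c2*, the mineralocorticoid receptor, which also binds corticosterone, read 7.04, 6.53, 6.89, 7.78 and 7.28 in mice 1, 3, 11, 14 and 16, a mean of 7.10 ± 0.46 (SD, n = 5), which is 1.83 log2 units over the cutoff (limma, standard error 0.18, adjusted p = 1.31e-06). *Esr1*, the estrogen receptor ERα, read 5.79, 6.50, 6.60, 6.52 and 6.67, a mean of 6.42 ± 0.36 (SD, n = 5), which is 1.14 log2 units over the cutoff (limma, standard error 0.16, adjusted p = 3.76e-05). Mouse 1 was the lowest for *Esr1*, and the other 4 lay close together. *Esr2* at 3.82 ± 0.28 and the progesterone receptor gene *Pgr*, an estrogen target in reproductive tissue, at 3.39 ± 0.29 (SD, n = 5 each) were under the cutoff in all 5 mice.

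Of 7 measured genes that handle steroid receptors or their ligands, 6 were called, with the chaperone genes *Stip1* at 13.06 ± 0.41 and *Fkbp5* at 12.29 ± 1.41 (SD, n = 5 each). *Hsd11b2*, whose enzyme keeps corticosterone away from the mineralocorticoid receptor in kidney, had 3.82 ± 0.29 (SD, n = 5) and lay below the cutoff in every mouse. *Hsd11b1*, whose enzyme regenerates corticosterone, was called at 6.42 ± 0.31 (SD, n = 5). *Fkbp5*, a known glucocorticoid target, read 12.86, 12.91, 13.85, 10.20 and 11.65 in mice 1, 3, 11, 14 and 16, and mouse 14, lowest here, was the highest for *Nr3c2*.

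Orphan receptors of the NR2 group included *Nr2f2* (COUP-TFII), which read 9.62, 9.19, 9.15, 10.33 and 9.21 in mice 1, 3, 11, 14 and 16, a mean of 9.50 ± 0.50 (SD, n = 5), which is 4.22 log2 units over the cutoff (limma, standard error 0.18, adjusted p = 6.07e-10). Mouse 14 was the highest, and the other 4 lay between 9.15 and 9.62. COUP-TFII is known from venous endothelium, mesenchymal cells and satellite cells. Of the markers of those cells, 5 of 11 endothelial (45.5%), 6 of 9 fibroblast (66.7%) and 4 of 10 satellite cell genes were called, where 43.5% of all genes were. The mean signal of the endothelial list was between 5.36 in mouse 16 and 5.80 in mouse 14, that of the fibroblast list between 5.76 in mouse 11 and 6.71 in mouse 3, and that of the satellite cell list at most 6.52, in mouse 16. *Pax7* of satellite cells, *Cldn5* of endothelium and *Pi16* of fibroblasts lay below the cutoff in every mouse, while *Sdc4* and *Itga7* of the satellite cell list at 11.93 ± 0.89 and 10.42 ± 0.99, *Cdh5* of endothelium at 7.15 ± 0.46 and *Dcn* of fibroblasts at 9.34 ± 0.80 (SD, n = 5 each) were called. The part of other cells in the *Nr2f2* signal was not tested, and less RNA per cell cannot be told apart from fewer cells of a type in a muscle pulldown.

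Its paralogs *Nr2f6* at 4.69 ± 0.54 and *Nr2f1* at 4.23 ± 0.67 (SD, n = 5 each) were not called. Both lay above the cutoff in mouse 16 alone, at 5.62 for *Nr2f6* and 5.28 for *Nr2f1*. The testicular receptor genes, which encode repressors of direct repeat elements, were both called. *Nr2c1* read 8.47, 8.10, 8.28, 8.67 and 7.67 in mice 1, 3, 11, 14 and 16, a mean of 8.24 ± 0.38 (SD, n = 5), and *Nr2c2* read 6.86, 7.33, 7.61, 7.40 and 7.18, a mean of 7.28 ± 0.28 (SD, n = 5). Of all called genes, 53.7% had a smaller SD than *Nr2c1* and 29.5% a smaller SD than *Nr2c2*. Their distances from the cutoff were 2.96 for *Nr2c1* and 1.999 for *Nr2c2*, with adjusted p-values from limma of 5.56e-09 and 1.24e-07.

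NR4A receptors are immediate early genes, induced within minutes to hours by calcium, cyclic AMP and contraction through CREB and related factors, and they control glucose and lipid genes in muscle. The 3 of them were called, and they were among the most variable receptors. *Nr4a1* (NUR77) read 10.73, 10.93, 13.37, 12.96 and 11.77 in mice 1, 3, 11, 14 and 16, a mean of 11.95 ± 1.18 (SD, n = 5). *Nr4a3* (NOR1) read 8.64, 10.20, 8.76, 7.57 and 5.71, a mean of 8.18 ± 1.67 (SD, n = 5). *Nr4a2* (NURR1) read 6.06, 6.23, 7.12, 6.46 and 7.92, a mean of 6.76 ± 0.77 (SD, n = 5). The highest mouse was thus mouse 11 for *Nr4a1*, mouse 3 for *Nr4a3* and mouse 16 for *Nr4a2*. Mouse 16, highest for *Nr4a2*, was the lowest for *Nr4a3*. From lowest to highest mouse, the linear signal changed 6.23-fold for *Nr4a1*, 22.5-fold for *Nr4a3* and 3.64-fold for *Nr4a2*. Their distances from the cutoff were 6.67 (standard error 0.34), 2.90 (standard error 0.46) and 1.48 (standard error 0.25), with adjusted p-values from limma of 3.14e-09, 9.26e-05 and 0.000128 for *Nr4a1*, *Nr4a3* and *Nr4a2*.

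The promoters of the 3 NR4A genes are printed because the paralogs are known as CREB targets and read highest in 3 different mice. Each sequence is the 250 bases before the gene's start in RefSeq (GRCm38.p6), 5′ to 3′ on the gene's strand, at chr15:101266596-101266845 (+) for *Nr4a1*, chr2:57124004-57124253 (-) for *Nr4a2* and chr4:48045055-48045304 (+) for *Nr4a3*, and capitals mark each half-site of the cyclic AMP response element (TGACG, or CGTCA on the other strand).
Nr4a1: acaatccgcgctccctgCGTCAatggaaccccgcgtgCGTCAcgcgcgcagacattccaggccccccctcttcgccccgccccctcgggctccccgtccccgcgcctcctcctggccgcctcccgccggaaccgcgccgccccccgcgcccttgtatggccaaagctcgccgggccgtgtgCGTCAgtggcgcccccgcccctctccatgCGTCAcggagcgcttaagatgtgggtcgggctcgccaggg
Nr4a2: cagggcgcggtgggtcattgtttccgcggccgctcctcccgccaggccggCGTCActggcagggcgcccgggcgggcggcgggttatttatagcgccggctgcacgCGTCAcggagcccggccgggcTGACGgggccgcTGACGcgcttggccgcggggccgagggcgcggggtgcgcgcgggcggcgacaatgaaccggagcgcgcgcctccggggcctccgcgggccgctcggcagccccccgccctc
Nr4a3: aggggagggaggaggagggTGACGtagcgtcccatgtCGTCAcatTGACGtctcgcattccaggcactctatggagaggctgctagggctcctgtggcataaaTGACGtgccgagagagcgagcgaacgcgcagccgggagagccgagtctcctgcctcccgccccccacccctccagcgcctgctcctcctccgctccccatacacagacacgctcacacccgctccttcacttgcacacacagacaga
Each window held 4 half-sites. Of 32851 windows of the same length before RefSeq starts, 17.8% held at least 1 and 0.137% held 4 or more. The half-site holds the base pair step CG, and these windows were not matched to the NR4A windows for base composition. In *Nr4a1* the half-sites nearest to the start began 40 and 69 bases before it, in *Nr4a2* 111 and 123 bases, and in *Nr4a3* 147 and 205 bases. The full element TGACGTCA, which holds a half-site on each strand, was in 0 of the 3 windows and in 1.55% of all windows. The NBRE motif AAAGGTCA, to which NR4A proteins bind as monomers, was in 0 of the 3 and in 1.34% of all, and the AP-1 motif TGANTCA in 0 of the 3 and in 6.75% of all. All were searched on both strands.

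Of 11 measured immediate early genes, 8 were called, and mouse 11, highest for *Nr4a1*, was highest for 6 of these 8, where it was highest for 19.7% of all called genes. The stress-induced factor gene *Atf3* read 12.01, 11.29, 13.54, 8.79 and 9.40 in mice 1, 3, 11, 14 and 16. The phosphatase gene *Dusp1* read 12.45, 13.53, 14.59, 14.73 and 13.22, with mice 11 and 14 on top, as for *Nr4a1*. Mouse 14 was, however, lowest for 3 of the 8, *Atf3*, *Junb* (7.25) and *Btg2* (9.25), and for 24.1% of all called genes. *Fos* read 6.68, 6.21, 8.02, 6.45 and 6.30, high in mouse 11 alone. *Nr4a3* had mouse 3 on top, as did 1 of the 8 immediate early genes (*Ier2*), and for *Nr4a2* the top mouse, 16, was highest for 0 of the 8. All 9 genes listed as NR4A targets in mouse muscle were called, most of them genes of glucose and glycogen use, with *Lpin1* of lipid metabolism and *Ucp3* beside them. *Pygm*, the muscle glycogen phosphorylase, had 19.08 ± 0.20, the glycolytic enzyme genes *Eno3* and *Pgam2* had 16.16 ± 0.50 and 15.18 ± 0.33, and *Fbp2*, the muscle fructose bisphosphatase, had 8.52 ± 0.81 (SD, n = 5 each).

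The remaining measured receptor genes lay under the cutoff in every mouse. Of the liver and gut receptors, *Hnf4a* had 3.92 ± 0.25, *Hnf4g* 3.31 ± 0.37, the bile acid receptor gene *Nr1h4* (FXR) 3.17 ± 0.28 and the xenobiotic receptor gene *Nr1i2* (PXR) 3.35 ± 0.34 (SD, n = 5 each). Receptors of steroid-making tissue and early embryo read 4.57 ± 0.37 for *Nr5a1* (SF1), 4.02 ± 0.30 for *Nr5a2* (LRH1) and 4.28 ± 0.35 for *Nr0b1* (DAX1) (SD, n = 5 each). *Nr0b2* (SHP), a bile acid responsive repressor, had 4.70 ± 0.31, and *Nr2e1* (TLX), known from neural stem cells, 4.31 ± 0.47 (SD, n = 5 each). A signal under the cutoff does not show that a transcript is absent.

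Most coregulator genes read above background, and those called lay from 1.14 (*Ncoa3*) to 8.74 (*Ppargc1a*) log2 units over the cutoff. Of 13 coactivator genes, 12 were called, and of 8 corepressor genes 7 were, where 43.5% of all genes were called. *Ppargc1a* at 14.02 ± 2.01 varied most of the 12, while the acetyltransferase gene *Crebbp* had 11.69 ± 0.25 and the methyltransferase gene *Carm1* 11.19 ± 0.59 (SD, n = 5 each). Mouse 14 was highest for 7 of the 12, and for 26.7% of all called genes. *Pprc1*, of the same family as *Ppargc1a*, was the coactivator not called, at 5.15 ± 0.41 (SD, n = 5). *Hdac3*, a histone deacetylase, had 13.39 ± 0.25 and *Nrip1* (RIP140) 11.05 ± 0.44 (SD, n = 5 each).

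**Figure D3:**
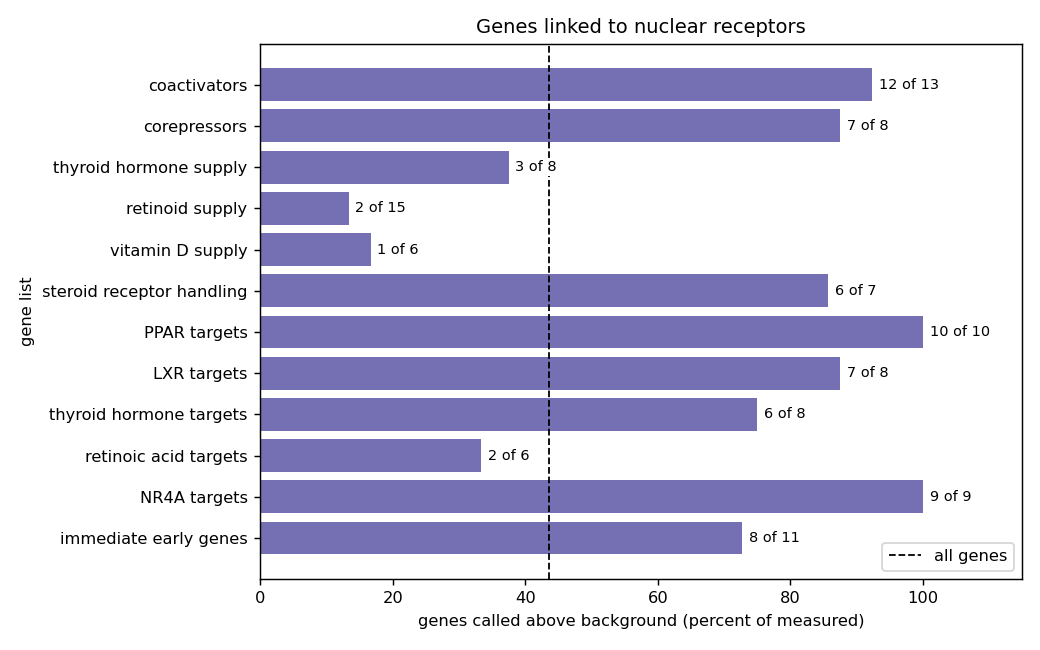
Percent of measured genes called above background (horizontal axis, bars from 0) in 12 lists of genes linked to nuclear receptors, with the number called beside each bar and a dashed line at 43.5%, the share over all genes. Lists of coregulators and of PPAR and NR4A targets are called in at least 87.5% of their genes, and lists of retinoid and vitamin D supply in 13.3% and 16.7%.

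Called receptors varied more between mice than the typical called gene, with a median SD of 0.47 against 0.36 over all called genes. An SD above 0.6 was found in 8 of the 22 and in 13.9% of all called genes. These 8 were *Nr4a3*, *Nr4a1*, *Rxrg*, *Ppara*, *Nr4a2*, *Rxrb*, *Rara* and *Thrb*. *Nr4a3* had an SD larger than 99.8% of all called genes, *Nr4a1* larger than 99.1% and *Rxrg* larger than 96.7%. *Nr1i3*, *Nr1h3* and *Nr6a1*, close to the cutoff, had the smallest SDs among the 22.

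Mouse 16 had the lowest signal for 9 of the 22 called receptors, against 1696 of all 8482 called genes, and its median deviation from the gene mean was -0.21 over the 22 and 0.0057 over all called genes. The 9 were *Rxrg*, *Ppara*, *Rxra*, *Rara*, *Rora*, *Nr2c1*, *Nr4a3*, *Rarb* and *Nr1h3*. *Rora* is counted by the mean of its probe sets. The one with a chromosome was lowest in mouse 16 (10.15), and the others were lowest in mouse 14 (8.14) and mouse 11 (4.57). In contrast, mouse 16 had the highest signal of *Thra*, *Nr4a2* and *Esr1*. Mouse 3 was highest for 7 of the 22, against 17.6% of all called genes, though mouse 14 was nearly level with it for *Rara*. Among the 7 is *Rora*, again by its mean, as its probe sets were highest in mouse 14 (11.18), mouse 3 (10.02) and mouse 1 (5.60). Without mouse 16 the median SD of the 22 was 0.37, and that of all called genes 0.35. Mice 1 and 16, the pair with low Y-linked signals, both read below mice 3, 11 and 14 for 6 of the 22 (*Rxrg*, *Rxra*, *Rara*, *Nr2c2*, *Nr1h3* and *Nr1i3*), where this held for 13.4% of all called genes. Both read above them for *Thra* and *Rxrb*, where this held for 10.7%. The part of sex in these values was not tested.

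**Figure D4:**
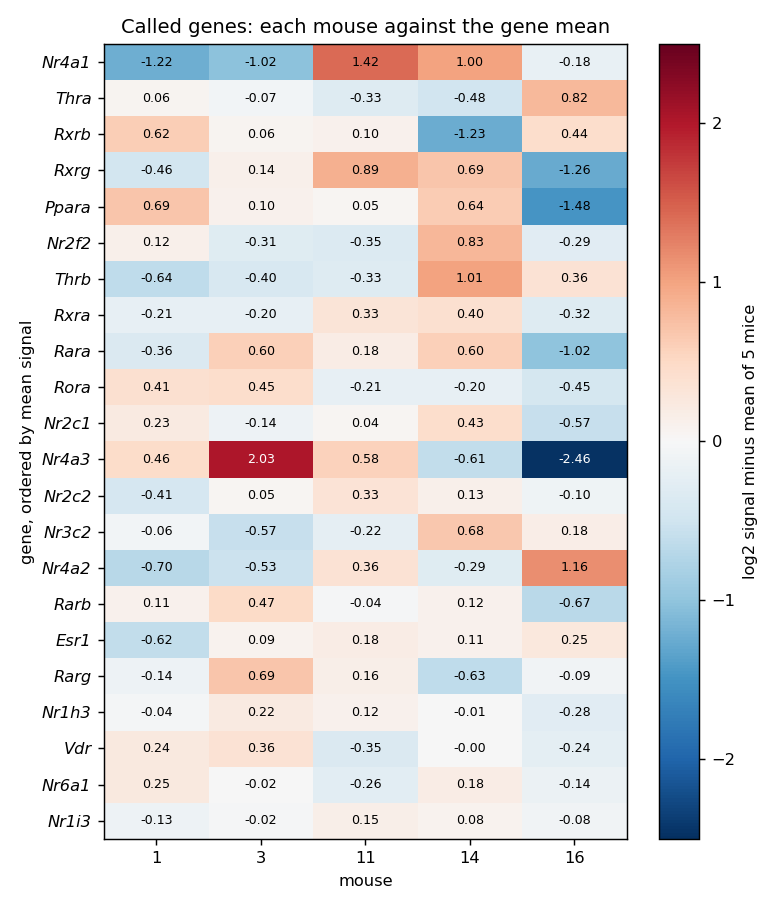
Log2 signal of each mouse minus the mean of 5 mice (colour, with the value written in) for the 22 called nuclear receptor genes, ordered by mean signal. Mouse 16 is lowest for 9 of the 22 genes and highest for *Thra*, *Nr4a2* and *Esr1*, and *Nr4a3* spans the widest range, with its lowest signal of 5.71 in mouse 16 and its highest of 10.20 in mouse 3.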

How the data were processed

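RNA pulled down with anti-HA antibody was hybridized to mouse Clariom S arrays, 1 per mouse. Deposited values are log2 signals, which the authors obtained from Transcriptome Analysis Console 4.0 in its default configuration. Neither the summarization algorithm nor the build is given in the sources used here. The signals were not normalized again, and processing that levels arrays can hide a shift common to all genes.

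Of 22206 probe sets, 19572 had 1 symbol in GEO's platform annotation, 0 had several and 2634 had none. Probe sets of a gene were averaged. The cutoff of each array, its 95th percentile over odorant receptor genes, was taken off every signal, and limma 3.58.1 (R 4.3.3) tested whether the remainder differs from 0 (1 group, eBayes, two-sided, Benjamini-Hochberg over 19505 genes). The test, tried on a simulated table of 19505 genes, called 1, 34, 49 and 50 of 50 genes placed 0, 0.5, 1 and 2 log2 units over the cutoff. Precision is limited by the number of arrays, which have no read depth. The p-values reflect the spread between these 5 mice, which eBayes draws toward a value common to all genes. They take the cutoff of each array as given and reflect no other source of error.

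The members and gene lists were chosen with earlier results of these data known. All members are named. Of a companion list, the 3 highest genes, the most variable called gene and, in lists of under 10 genes, uncalled genes may be named. Other named companion and marker genes were chosen after their values were seen. Alternatives were other background sets and percentiles, another prior, quantile normalization, a filter on low genes, the highest probe set, a rule with no model, each mouse left out, and mice 3, 11 and 14 only. Promoters came from RefSeq (GRCm38.p6), and 34 of 37 members had one. Python 3.11.15 with pandas 2.3.3, numpy 2.4.6 and matplotlib 3.10.9 gave tables and plots.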

Additional observations from a re-analysis of the deposited data

Results flagged for a closer look

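For 7 of 136 genes, the 37 receptors and all 99 measured companion genes, the gap between an extreme mouse and its nearest neighbour took up more than 0.71 of the range. Chance alone would give about 6.8 (1 in 20). This ratio was 0.807 for *Esr1*, with mouse 1 lowest, 0.759 for *Nr2f6*, with mouse 16 highest and alone above the cutoff, and 0.728 for *Esr2*, with mouse 16 lowest and all 5 mice below the cutoff. Among companion genes, it was 0.742 for *Fos*, with mouse 11 highest, 0.718 for *Me1*, with mouse 16 highest, 0.73 for *Fabp3*, with mouse 16 lowest by under 0.1 log2 units, and 1 for *Atp2a1*. The last has 4 equal signals at the top of the scale, which give this ratio whatever the distance of mouse 16. In mouse 16 its signal was equal to that of *Acta1*, *Mb*, *Myh2*, *Myh7* and *Tnnt1*, a ceiling of that array. The gap of *Atp2a1* is thus one between array ceilings. The part of this lower ceiling in the gap of *Fabp3* was not tested.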

How the results depend on the processing

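The number of called receptor genes was 22, and it ran from 18 to 26 over the alternatives, between 20 and 21 with 1 mouse left out, and was 19 over mice 3, 11 and 14. The 18 (48.6% of the receptors) came at settings that called between 38.1% and 41.0% of all genes, and the 26 (70.3%) at one that called 65.7%, so the receptors' excess over all genes was smaller there than at the main setting (59.5% against 43.5%). That of companion genes was 69, and it ran from 67 to 81. Of the 22 receptors, 18 kept the call under every alternative run, and *Nr1h3*, *Vdr*, *Nr6a1* and *Nr1i3* lost it under at least 1.

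At the 99th percentile of odorant receptor genes, distances changed sign for *Nr1h3* (-0.069), *Vdr* (-0.078), *Nr6a1* (-0.15), *Nr1i3* (-0.23), *Pparg* (-0.30), *Crym* (-0.33), *Rbp4* (-0.25) and *Egr2* (-0.38). With beta-defensin and keratin-associated protein genes as background they were -0.084, -0.093, -0.17, -0.24, -0.32, -0.35, -0.26 and -0.39 for the same genes in that order. Against vomeronasal receptor genes, *Crym* (-0.021) and *Egr2* (-0.067) changed sign, as did *Hr* at the 90th percentile (0.036). With 1 mouse left out, *Egr2* ran from -0.031 without mouse 1 to 0.27 without mouse 16. At the 50th percentile, which called 65.7% of all genes, distances turned positive for *Nr0b2* (0.67), *Nr2f6* (0.66), *Nr5a1* (0.54), *Nr2e1* (0.28), *Nr0b1* (0.25), *Nr2f1* (0.20), *Hr* (1.01), *Fosb* (0.85), *Cyp24a1* (0.69), *Stra6* (0.62), *Cyp26b1* (0.29), *Dio2* (0.28), *Cubn* (0.26), *Crabp2* (0.23), *Lrp2* (0.22), *Abcg1* (0.21), *Cyp26a1* (0.0081) and *Arc* (0.0030). A lower or higher cutoff moves every distance by construction. No paired analysis was possible because the design holds 1 group. The array gives no detection value here, so signals near the cutoff cannot be told from background.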
